A study of Mus musculus with 32 samples.

Results

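The neuropeptide precursors and granins described here are 10 genes taken by name out of the 49671 genes of the count table, and all 10 passed the filter on low counts at both time points. They are Adcyap1, Crh, Tac1, Penk, Pdyn, Cck and Vgf, which encode precursors of secreted peptides, and the granins Scg2, Chga and Chgb. Expression was measured by RNA-seq in primary cortical neurons prepared from forebrains of late embryonic wild-type C57BL/6 mice and kept in Neurobasal medium with B27 supplement. Cultures either stayed untreated or received 1 of 3 oligoribonucleotides. These were the miRNA miR-92a-1-5p, a mutated control derived from let-7b that is called Mut.oligo, and the miRNA miR-124-5p. Cultures were harvested after 6 h or 5 d, with 4 libraries in each of the 8 groups. All 3 oligoribonucleotides were synthetic, 5′-phosphorylated and linked by phosphorothioate bonds, so every treated group carried this backbone. These cultures hold neurons together with the other cells of the dissociated tissue, and in bulk RNA fewer cells of a type and less RNA per cell cannot be told apart.

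Neuropeptides are made as large precursors that are packed with granins into dense-core vesicles, cleaved there by prohormone convertases and released during strong electrical activity. The granins are acidic proteins of the vesicle matrix, and some are themselves cleaved into peptides. Several of these genes are textbook targets of neuronal activity, because depolarisation and cAMP act through CREB on cAMP response elements in their promoters. Penk, Pdyn and Tac1 are most abundant in striatal projection neurons, whereas Cck is shared by interneurons and pyramidal cells of the cortex.

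The libraries held 24514090 to 73626029 counted reads, and 3 reads corresponded to 0.122 counts per 1000000 counted reads (CPM) in the smallest and 0.0407 CPM in the largest library, a floor that covers counting error only. Summed markers of neurons reached 6204 to 6920 CPM at 6 h and 5450 to 7440 CPM at 5 d, and none of the 7 markers was at 0 in any library. Each label also names an experiment batch, written here as letters, with 7 batches at 6 h and 6 other batches at 5 d. At 6 h, the 4 untreated libraries came from batches A to D, and each of these batches also held 1 miR-92a-1-5p library. Batches C and D held 1 miR-124-5p library each, and batches A and D held 1 Mut.oligo library each. A batch is only what the label calls an experiment, and whether it was a separate preparation of neurons was not stated in the sources used here.

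The batch names did not always match the likeness of the libraries. Over 11048 genes with a mean of at least 5 CPM, the deviations of 2 libraries of the same batch from the mean of all 6 h libraries correlated with a median r of 0.58, from 0.26 to 0.75. Of the 14 libraries that share a batch at 6 h, 5 were nonetheless most like a library of another batch, as were 6 of 15 at 5 d, where r within a batch ran from 0.00 to 0.86. At 6 h these 5 libraries all carried the names A or E, and each was most like a library that carried the other of these names. Mut.oligo replicate 3, named as batch A, was most like the miR-124-5p library of batch E (r = 0.79), and at most r = 0.56 like a library of batch A. Mut.oligo replicate 2, named as batch E, was most like the miR-92a-1-5p library of batch A (r = 0.57), and at r = 0.26 like the one other library of batch E. Untreated replicate 1, named as batch A, was also most like the miR-124-5p library of batch E (r = 0.58). It was at r = 0.40 like the miR-92a-1-5p library of batch A and at r = 0.44 like Mut.oligo replicate 2. Exchanging the names of the 2 Mut.oligo libraries therefore does not settle the batch of untreated replicate 1. These correlations run across genes, which are not independent replicates. Comparisons of the 10 genes at 6 h that use the batch are therefore given in 3 ways. These are the names as labelled, the names of the 2 Mut.oligo libraries exchanged, and both of these libraries left out. Comparisons of other genes are given only as labelled, and those between time points as labelled and exchanged. The exchange was chosen from the expression of the same libraries, so a fit with it is not independent support.

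The mature miR-92a-1-5p is shown because its seed, bases 2 to 8 in capitals, is the part with which a miRNA usually pairs with a target mRNA. The RefSeq entry lies at chr14:115044437-115044459 on the plus strand of GRCm38.p6.
mmu-miR-92a-1-5p: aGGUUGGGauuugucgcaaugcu
Its 7-base complement CCCAACC was found in the longest annotated 3′ UTR of 0 of the 10 genes (GENCODE M21), against 2116 of 21150 genes, or 10%. No match means only that these letters are not in those UTRs. The RefSeq tables used here hold no entry for miR-124-5p.

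For the promoters, the full cAMP response element TGACGTCA and its core TGACG, or CGTCA on the other strand, were sought from 250 bases before to 50 bases after each RefSeq transcription start in GRCm38.p6. Every full element also holds the core. The full element was present in 588 of 32851 promoters (1.79%), and the core in 6837 (20.8%). Among the members, Scg2 and Chgb held the full element, and Adcyap1, Chga, Cck and Tac1 held the core. The 2 Pdyn promoters held neither, and Vgf, Crh and Penk had no entry. The AP-1 element TGAGTCA, or TGACTCA on the other strand, present in 1709 promoters (5.2%), was in none of the promoters of the members. The 30 bases around the element are shown for these genes, in the direction of transcription and with the element in capitals. The part of these elements in the levels of the genes was not tested.
Scg2, full element from 68 bases before the start, chr1:79440076-79440105, minus strand: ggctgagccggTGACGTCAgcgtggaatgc
Chgb, full element from 72 bases before the start, chr2:132781559-132781588, plus strand: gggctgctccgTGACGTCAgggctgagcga
Adcyap1, core from 91 bases before the first start, chr17:93198914-93198943, plus strand: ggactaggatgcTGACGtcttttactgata
Chga, core from 44 bases before the start, chr12:102554885-102554914, plus strand: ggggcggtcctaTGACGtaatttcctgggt
Cck, core on the other strand from 47 bases before the start, chr9:121495724-121495753, minus strand: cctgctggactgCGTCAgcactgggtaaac
Tac1, core on the other strand from 197 bases before the start, chr6:7554852-7554881, plus strand: tccctaaaattgCGTCAtttcgaacacaat
Tac1, core on the other strand from 43 bases before the start, chr6:7555006-7555035, plus strand: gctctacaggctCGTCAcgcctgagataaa
A match is a description of these windows and says nothing of binding in these neurons. The GENCODE genes of Scg2, Chgb and Tac1 begin upstream of the RefSeq starts used here, so the windows of Scg2 and Chgb and the nearer one of Tac1 lie within the annotated genes.

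Positions are those of GENCODE M21 on GRCm38, whole genes with introns, and all counts were taken over exons. Adcyap1 (ENSMUSG00000024256) lies at chr17:93199017-93206537 on the plus strand, Vgf (ENSMUSG00000037428) at chr5:137026392-137033351 plus, Scg2 (ENSMUSG00000050711) at chr1:79434669-79440120 minus and Crh (ENSMUSG00000049796) at chr3:19693401-19695396 minus. Chga (ENSMUSG00000021194) lies at chr12:102554969-102565028 plus and Chgb (ENSMUSG00000027350) at chr2:132781278-132795079 plus. Penk (ENSMUSG00000045573) lies at chr4:4133531-4138819 minus, Pdyn (ENSMUSG00000027400) at chr2:129686565-129699844 minus, Tac1 (ENSMUSG00000061762) at chr6:7554879-7565834 plus and Cck (ENSMUSG00000032532) at chr9:121489824-121495694 minus.

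In untreated neurons at 6 h, the granins led the order of levels per length, in CPM per kilobase of annotated exons. Scg2, the precursor of secretoneurin, was at 59.7 ± 10.4 (SD, n = 4), Chgb at 48.5 ± 1.09 and Chga, the precursor of vasostatin and catestatin, at 38.7 ± 2.03 CPM per kb. Vgf, whose peptides act in energy balance and synaptic plasticity, followed at 29.5 ± 6.94 CPM per kb, and Cck, the cholecystokinin precursor, at 25.0 ± 3.95 CPM per kb. Chga and Vgf overlapped between libraries, as did Vgf and Cck. Penk, the enkephalin precursor, was at 9.93 ± 1.61 CPM per kb and Adcyap1, which encodes the cAMP-raising peptide PACAP, at 4.53 ± 0.714 CPM per kb, and neither overlapped with its neighbours in the order. Pdyn, the dynorphin precursor, at 1.06 ± 0.483, Crh, corticotropin-releasing hormone, at 0.977 ± 0.349 and Tac1, the substance P precursor, at 0.742 ± 0.184 CPM per kb overlapped with each other. Crh rested on only 5 to 69 reads per library at 6 h and on 5 to 32 at 5 d, whereas Scg2 had 2037 to 10220 reads in all libraries.

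After 6 h of miR-92a-1-5p, Adcyap1, Vgf, Scg2 and Crh stood below the untreated partner from their own batch in all 4 batches, Chgb stood slightly below it, and Penk and Cck slightly above. The comparison asks how the neurons respond early to the miRNA. Without a batch term, however, 0 of the 10 genes passed the test. Genes were called where the log2 fold change went beyond 0.5 in either direction and the adjusted p was below 0.05 (edgeR's quasi-likelihood test, Benjamini-Hochberg adjustment over 18755 genes), which without a batch term 0% of all genes met. At an unadjusted p below 0.05, 4 of the 10 genes were lower, where 4.75% of all genes passed that level in either direction. DESeq2 called 0 members here, and 0 in every other oligoribonucleotide comparison without a batch term.

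Adcyap1 stood at 20.8, 15.3, 14.97 and 17.3 CPM in the untreated libraries of batches A, B, C and D. In the miR-92a-1-5p libraries of the same batches it stood at 12.8, 10.7, 9.84 and 9.89 CPM. All treated libraries lay below all untreated ones. The differences within batches were -0.70, -0.51, -0.60 and -0.81 on the log2 CPM scale. The fitted log2 fold change was -0.66 (SE 0.33, adjusted p = 0.999) without a batch term and -0.66 (SE 0.13, adjusted p = 0.0294) with it, a ratio of 0.632.

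Vgf was at 99.0, 109, 61.8 and 81.3 CPM in untreated batches A to D. After miR-92a-1-5p, it was at 59.9, 75.0, 41.8 and 61.7 CPM in the same order. The 2 groups overlapped, since batch C was low in both, but each treated library was below its own untreated partner. The within-batch differences were -0.73, -0.53, -0.56 and -0.40. The log2 fold change was -0.56, with SE 0.24 and adjusted p = 0.999 without a batch term and SE 0.10 and adjusted p = 0.0111 with it.

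Scg2 was at 136, 187, 127 and 150.1 CPM in untreated neurons of batches A to D. It was at 77.7, 125, 91.5 and 99.9 CPM after miR-92a-1-5p, and the highest treated library lay just under the lowest untreated one. Within batches it differed by -0.81, -0.58, -0.48 and -0.59. The log2 fold change of -0.61 had SE 0.17 and adjusted p = 0.941 without a batch term, where Scg2 had the smallest unadjusted p of the 10 genes, 0.00208. Adding the batch gave an SE of 0.12 and an adjusted p of 0.0248.

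Crh was at 1.09, 1.98, 1.03 and 1.06 CPM in untreated batches A to D and at 0.261, 0.937, 0.357 and 0.635 CPM after miR-92a-1-5p. The groups did not overlap, at 33 to 61 untreated and 12 to 69 treated reads. The within-batch differences of -2.07, -1.08, -1.52 and -0.74 were the widest of the members. Its log2 fold change of -1.18 (SE 0.46, adjusted p = 0.999) without a batch term and -1.26 (SE 0.36, adjusted p = 0.126) with it did not pass.

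**Figure D1:**
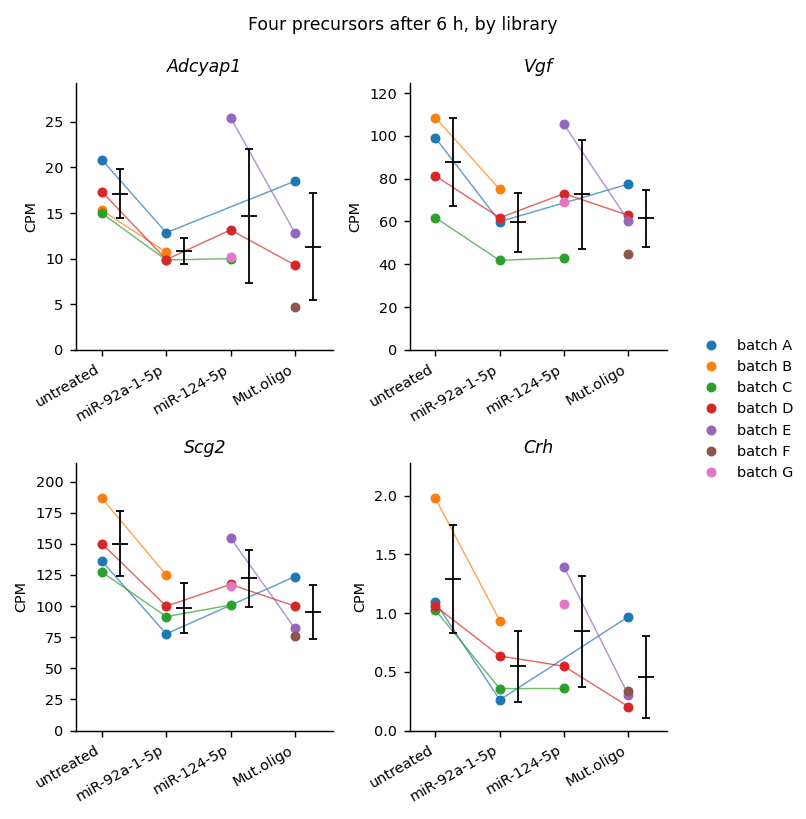
Levels of Adcyap1, Vgf, Scg2 and Crh after 6 h in CPM (y axis, linear from 0) by group (x axis). Each point is 1 library, colours and thin lines join libraries of the same labelled batch, and black bars give the mean and SD of 4 libraries; all lines from untreated to miR-92a-1-5p fall, whereas the Mut.oligo library named batch A lies above its miR-92a-1-5p partner in all 4 panels.

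With the batch as a covariate and the names as labelled, 3 of the 10 genes were therefore called lower and 0 higher. Of all 18755 genes, 39 were called (0.208%), 25 of them lower (0.133%). Adcyap1 and Vgf already stand in the paper's own list of genes reduced at 6 h by either miRNA, drawn from these libraries. The 10 genes were chosen with earlier results known, so their share against all genes is a description and no test of enrichment. DESeq2 with the same covariate called only Vgf (-0.56, SE 0.15, adjusted p = 0.0159), against 0.139% of genes, with Adcyap1 at an adjusted p of 0.0556, Scg2 at 0.0881 and none given for Crh. With the batch as a random block in limma's voom, 0 members were called, against 0.0587% of genes, with Scg2 at -0.61 (SE 0.13, adjusted p = 0.0787) and Vgf at -0.54 (SE 0.15, adjusted p = 0.17). With only the miR-92a-1-5p and untreated libraries in the fit, which leaves out both of these Mut.oligo libraries, 4 of 10 were called lower, against 0.639% of 18147 genes. There Adcyap1 had SE 0.06 (adjusted p = 2.29e-07), Vgf SE 0.04 (adjusted p = 6.68e-09), Scg2 SE 0.04 (adjusted p = 6.12e-10) and Crh a log2 fold change of -1.24 with SE 0.22 (adjusted p = 0.00101), all from edgeR. DESeq2 on the same libraries called Adcyap1, Vgf and Scg2 and gave Crh no adjusted p, where 18 of all 18147 genes were called higher and 25 lower. Leaving out each batch in turn from the edgeR fit of these libraries left 3 or 4 members called. Vgf was at -0.50 (adjusted p = 4.21e-06) and so not beyond the fold limit when batch A was left out. Shares of all genes are not given for fits that leave out 1 batch or 1 library. Exchanging the 2 Mut.oligo names gave the same 4 genes, against 0.613% of all genes, and so did leaving out both libraries (0.579%). With the names as labelled, in contrast, leaving out 1 library of the 2 groups called between 0 and 3 members, with Adcyap1 between -0.75 and -0.55, Vgf between -0.60 and -0.47 and Scg2 between -0.69 and -0.48. All 3 stayed called only without miR-92a-1-5p replicate 1, Vgf alone did without untreated replicate 4 or miR-92a-1-5p replicate 3, and 0 did without any other of these libraries. Summed markers of excitatory cortical neurons stood at 1409 to 1555 CPM in untreated and at 1444 to 1621 CPM in miR-92a-1-5p libraries, and those of all neurons at 6352 to 6825 and 6204 to 6862 CPM, with none of these markers at 0. An exact sign-flip test over 4 pairs cannot give a two-sided p below 0.125, so the calls rest on the spread shared across genes.

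Chgb and Chga, the granins that form the core of the vesicle, moved little. Chgb was at 136, 134, 130.4 and 130.3 CPM in untreated batches A to D and at 108, 127, 117 and 116 CPM after miR-92a-1-5p. The groups did not overlap, yet the log2 fold change was only -0.19 (SE 0.07, adjusted p = 0.999; with the batch SE 0.05, adjusted p = 0.0819), below the fold limit. Chga was at 100.4 to 112 CPM in untreated and at 98.1 to 109 CPM in treated libraries, with within-batch differences between -0.11 and -0.03. Scg2 and Chgb, which both held the full cAMP response element, were at log2 fold changes of -0.61 and -0.19, and the part of the element was not tested.

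The other precursors did not pass the test in either direction. Penk stood above its untreated partner in 4 of 4 batches, at log2 differences of 0.07 to 0.18, and so did Cck, at 0.08 to 0.25. The batch fit gave these values (log2 fold change 0.12, SE 0.06, adjusted p = 0.393 for Penk and 0.16, SE 0.09, adjusted p = 0.46 for Cck). Penk stood at 14.4, 14.6, 20.04 and 15.9 CPM in untreated batches A to D and at 15.1, 15.9, 21.6 and 18.0 CPM after miR-92a-1-5p, so that batch C was the highest in both groups. Pdyn stood at 1.82, 2.24, 3.23 and 4.96 CPM in untreated neurons and at 2.13, 3.04, 3.71 and 4.96 CPM after miR-92a-1-5p, and batches A and D differed more than any pair within a batch. Tac1, at 1.79 to 3.26 CPM untreated and 1.83 to 3.13 CPM treated, differed by -0.06 to 0.03 within batches. The 233 exon bases that Penk shares with A830012C17Rik on the opposite strand were counted by strand, and that gene stood at 0 to 0.241 CPM.

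**Figure D2:**
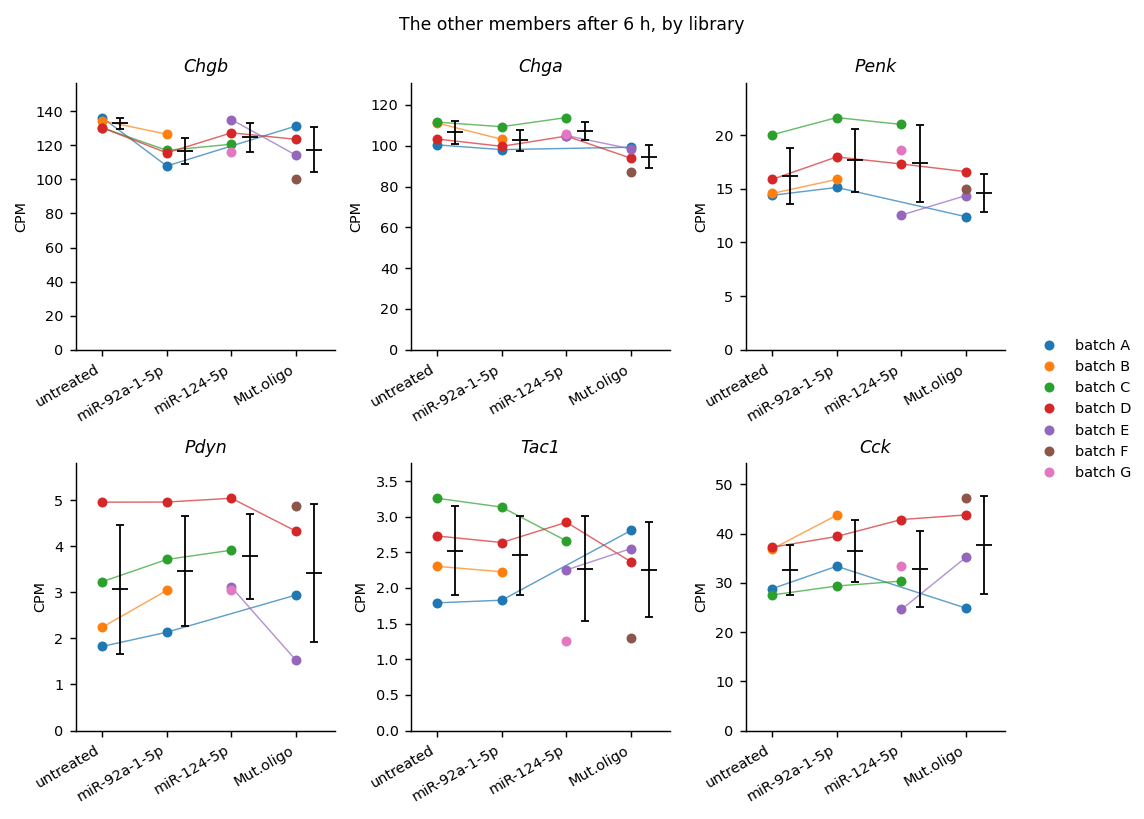
Levels of Chgb, Chga, Penk, Pdyn, Tac1 and Cck after 6 h in CPM (y axis, linear from 0) by group (x axis), drawn as in the plot of Adcyap1, Vgf, Scg2 and Crh. Within a colour, Penk and Cck run nearly level or slightly up from untreated to miR-92a-1-5p, and Pdyn and Tac1 differ more between batches than between groups.

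Mut.oligo, the control oligoribonucleotide, also gave lower mean levels of Adcyap1, Vgf, Scg2 and Crh at 6 h, with values that depend on which batch its replicates 2 and 3 are given. This comparison asks whether a response needs the miRNA sequence, and it shares its untreated libraries with the comparison above. Without a batch term, 0 of 10 genes were called, against 0% of all genes, and 5 of 10 were lower at an unadjusted p under 0.05, a level that 9.49% of all genes passed.

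Adcyap1 stood at 9.30, 12.8, 18.5 and 4.69 CPM in Mut.oligo replicates 1 to 4, against 14.97 to 20.8 CPM in untreated libraries. Scg2 stood at 100.02, 82.1, 123.7 and 75.8 CPM, all below the 127 to 187 CPM of untreated neurons. Vgf stood at 62.8, 60.3, 77.4 and 45.0 CPM, and Crh at 0.204, 0.304, 0.969 and 0.335 CPM. Replicate 3, one of the 2 libraries above, was the highest for all 4 genes. It also had the highest summed excitatory neuron markers of the 6 h libraries (1691 CPM) and the lowest astrocyte markers (339.5 CPM), whereas replicate 4, lowest for Adcyap1, Scg2 and Vgf, had the lowest excitatory markers (1352 CPM) and the highest astrocyte (761 CPM) and progenitor markers (369 CPM). The part of these cell types was not tested. Chga stood at 93.9, 98.4, 99.3 and 87.3 CPM, all below the untreated libraries, with a log2 fold change of -0.17 (SE 0.06, adjusted p = 0.386).

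As labelled and with the batch term, 0 of 10 genes were called, against 0.0213% of all genes, and 5 members had an unadjusted p below 0.05 (8.47% of all genes), with Adcyap1 at -0.66 (SE 0.17, adjusted p = 0.194), Vgf at -0.53 (SE 0.12, adjusted p = 0.149), Scg2 at -0.50 (SE 0.14, adjusted p = 0.311) and Crh at -1.37 (SE 0.50, adjusted p = 0.444). With the 2 names exchanged, these 4 genes were called lower, against 0.229% of all genes. Adcyap1 was then at -0.81 (SE 0.08, adjusted p = 5.47e-07), Vgf at -0.63 (SE 0.06, adjusted p = 6.86e-07), Scg2 at -0.65 (SE 0.05, adjusted p = 2.69e-09) and Crh at -1.92 (SE 0.33, adjusted p = 0.000905). With both libraries left out, Adcyap1 at -0.87 (adjusted p = 0.000999), Scg2 at -0.61 (adjusted p = 9.34e-05) and Crh at -2.59 (adjusted p = 0.0414) were called, against 0.166% of all genes, and Vgf was at -0.50 (adjusted p = 0.00721). Leaving out Mut.oligo replicate 3 alone, with the batch term as labelled, gave 4 called members, and the share of all genes is not given for that fit. Replicate 3 was the highest of its group for Adcyap1, Vgf, Scg2 and Crh, so its removal lowers the Mut.oligo level of each. In batch D, which holds neither replicate 2 nor replicate 3, the Mut.oligo library was below the untreated one by 0.90 for Adcyap1, 0.37 for Vgf, 0.59 for Scg2 and 2.38 for Crh on the log2 scale.

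After miR-124-5p, the same 4 genes were lower than untreated in both shared batches, and 0 of 10 were called in the fit without a batch term (0% of all genes), with 0 members at an unadjusted p under 0.05 (4.54% of all genes). Scg2 was at 117, 155, 116 and 101 CPM in replicates 1 to 4, and replicate 2, from batch E, overlapped with the untreated libraries. Crh was at 0.548, 1.39, 1.07 and 0.358 CPM in the same libraries. Adcyap1 was at 13.1, 25.5, 10.2 and 10.001 CPM and Vgf at 73.0, 105, 69.2 and 43.0 CPM, again with the highest value in replicate 2, so that batch E, which has no untreated library, sets the upper end for all 4 genes. Chgb, at 127, 135, 116 and 121 CPM, was likewise highest in replicate 2.

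In batches C and D, the miR-124-5p library differed from untreated by -0.58 and -0.40 for Adcyap1, -0.52 and -0.15 for Vgf, -0.34 and -0.35 for Scg2 and -1.52 and -0.95 for Crh. With the batch term as labelled, Scg2 was at -0.16 (SE 0.15) and the smallest adjusted p of the 10 genes was 0.853, with 0% of all genes called. With the names exchanged, 3 genes passed the adjusted p but not the fold limit, namely Adcyap1 at -0.43 (adjusted p = 0.015), Vgf at -0.33 (adjusted p = 0.0165) and Scg2 at -0.38 (adjusted p = 0.000127), and 0.016% of all genes were called. Crh was at -1.31 (adjusted p = 0.0734). With both libraries left out, Adcyap1 was at -0.47 (adjusted p = 0.0224), Vgf at -0.37 (adjusted p = 0.0167) and Scg2 at -0.39 (adjusted p = 0.00148), again with 0 members called, against 0.0161% of genes.

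**Figure D3:**
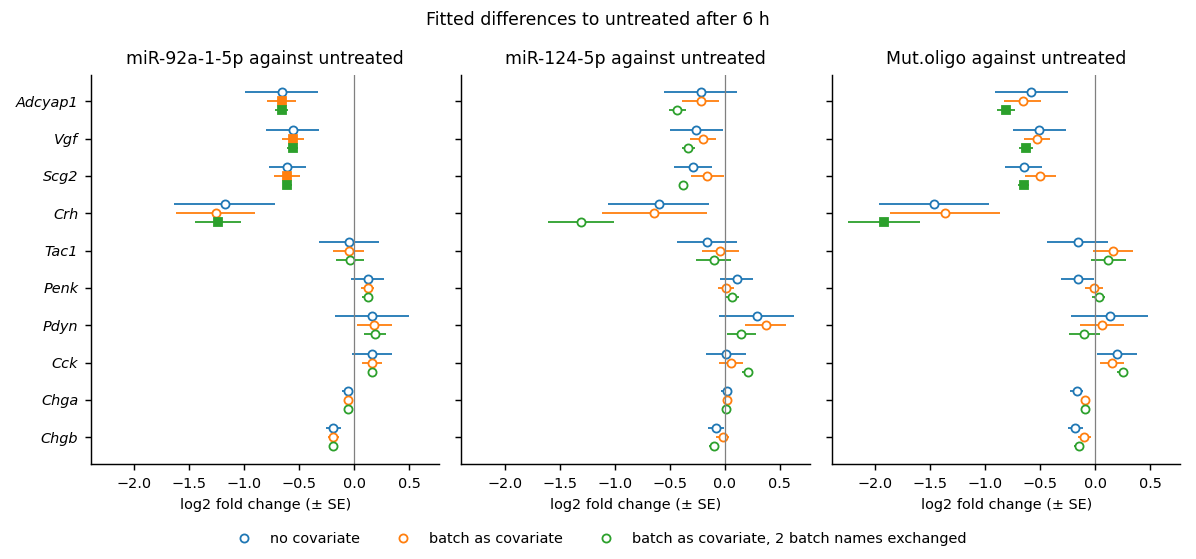
Log2 fold change against untreated after 6 h (x axis, with SE bars) for each of the 10 genes (y axis) and each oligoribonucleotide (panels), from fits with no covariate, with the batch as covariate, and with the batch as covariate and the batch names of Mut.oligo replicates 2 and 3 exchanged. Filled squares mark called genes; for miR-92a-1-5p the estimates barely move between fits while the SE bars shrink, and for Mut.oligo and miR-124-5p the exchange moves Adcyap1, Vgf, Scg2 and Crh further below 0.

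Compared directly with each other in edgeR, 0 of the 10 genes were called between the oligoribonucleotides at 6 h, with or without the batch term as labelled, where 0% of all genes were called in all 3 pairs. DESeq2 also called 0 members. At an unadjusted p below 0.05 and with the batch term there were 0 members for miR-92a-1-5p against Mut.oligo (2.80% of all genes), 4 for miR-92a-1-5p against miR-124-5p (5.24%) and 4 for miR-124-5p against Mut.oligo (4.38%). In the batch fit, miR-92a-1-5p against Mut.oligo was at 0.00 (SE 0.18) for Adcyap1, -0.02 (SE 0.12) for Vgf and -0.11 (SE 0.15) for Scg2. Against miR-124-5p, miR-92a-1-5p was lower by 0.44 (SE 0.17), 0.36 (SE 0.12) and 0.45 (SE 0.15) for these genes, at an adjusted p of 0.946 for each. With the 2 names exchanged, 0 members were called in each pair, against 0.0693% of genes for miR-92a-1-5p against Mut.oligo, 0.016% for miR-92a-1-5p against miR-124-5p and 0.00533% for miR-124-5p against Mut.oligo. Scg2 then passed the adjusted p but not the fold limit, at -0.24 (SE 0.04, adjusted p = 0.0419) for miR-92a-1-5p against miR-124-5p and 0.27 (SE 0.05, adjusted p = 0.0178) for miR-124-5p against Mut.oligo. For miR-92a-1-5p against Mut.oligo it was at 0.03 (SE 0.05, adjusted p = 0.937). With both libraries left out, 0 members were called in each pair (0%, 0.0214% and 0% of genes in the same order), and Scg2 was at -0.01 (SE 0.07), -0.23 (SE 0.05, adjusted p = 0.275) and 0.22 (SE 0.07, adjusted p = 0.946). A p above the threshold does not show that they act alike. Leaving out Mut.oligo replicate 3 called 2 of the 10 genes between miR-124-5p and Mut.oligo, and the share of all genes is not given for that fit. That library was the highest of its group for Adcyap1, Vgf, Scg2 and Crh. Its removal alone lowers the Mut.oligo level of these genes, so no conclusion is drawn from this count.

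After 5 d, Adcyap1, Vgf, Scg2 and Crh differed from untreated by log2 fold changes between -0.17 and 0.08 without a batch term, and 0 of the 10 genes were called for any oligoribonucleotide without a batch term, where 0.00517% of all 19333 genes were called for miR-92a-1-5p and 0% for the others. Chgb after miR-124-5p was the only member at an unadjusted p under 0.05, where 503, 702 and 539 of 19333 genes passed that level for miR-124-5p, for miR-92a-1-5p and for Mut.oligo. With the batch term, edgeR and DESeq2 called 0 of 10, and Penk after miR-92a-1-5p was the only member at an unadjusted p below 0.05 (10.8% of all genes for miR-92a-1-5p, 4.79% for miR-124-5p and 4.20% for Mut.oligo), where 0.352% of all genes were called for miR-92a-1-5p, 0.0259% for miR-124-5p and 0.0466% for Mut.oligo. Between oligoribonucleotides, 0 of 10 were called with the batch term, against 0.0103% of genes for miR-92a-1-5p against either of the others and 0% for miR-124-5p against Mut.oligo, and 0% of genes without it. At an unadjusted p below 0.05 and with the batch term there were 4 members for miR-92a-1-5p against Mut.oligo (8.87% of all genes), 3 against miR-124-5p (7.68%) and 1 between these (2.80%).

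Adcyap1 was at 9.98, 9.31, 11.8 and 9.04 CPM in untreated replicates 1 to 4 and at 9.42, 9.91, 9.26 and 9.07 CPM after miR-92a-1-5p. It was at 8.65, 7.64, 9.26 and 9.34 CPM after Mut.oligo, and the groups overlapped. Crh lay between 0.101 and 0.625 CPM in the 16 libraries of 5 d, with overlap of all groups. After Mut.oligo with the batch term it was at 0.60 (SE 0.33, adjusted p = 1.0), above untreated in 3 of 3 shared batches by 0.29, 0.60 and 0.92. Vgf lay between 28.1 and 46.4 CPM in all 16 libraries and Scg2 between 118 and 199.7 CPM, with the highest value of both in untreated replicate 3. That library is the only one of its batch.

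Chga was at 123, 113, 107 and 106 CPM in untreated replicates, 115, 119, 126 and 113 CPM after miR-92a-1-5p, 164, 115, 117 and 105 CPM after miR-124-5p and 115, 116, 143 and 122 CPM after Mut.oligo. Chgb was at 157, 136, 149 and 132 CPM in untreated replicates, 147, 153, 152 and 144 CPM after miR-92a-1-5p and 196, 151, 156 and 141 CPM after miR-124-5p. Replicate 1 of miR-124-5p was the highest for both granins. The log2 fold change of Chgb after miR-124-5p was 0.17 without a batch term (SE 0.07, adjusted p = 1.0) and 0.10 (SE 0.07) with it.

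Cck was at 35.9, 47.0, 16.1 and 35.8 CPM in untreated replicates. It was at 44.0, 37.3, 54.1 and 37.1 CPM after miR-124-5p and at 36.7, 51.1, 58.1 and 40.7 CPM after Mut.oligo. The log2 fold change of Cck after Mut.oligo was 0.48 (SE 0.26) without a batch term and 0.16 (SE 0.11) with it, where untreated replicate 3, alone in its batch, carries no weight. Penk ran the other way, at 35.8 CPM in untreated replicate 3 against 11.9 to 19.5 CPM in the other untreated libraries.

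Among the members, Penk had the smallest p for miR-92a-1-5p at 5 d in the batch fit (log2 fold change 0.34, SE 0.08, adjusted p = 0.116). It was at 33.8, 21.0, 16.5 and 21.9 CPM after miR-92a-1-5p, and at 33.2 CPM in the miR-124-5p library that shares batch M with the first of these. Both libraries of batch M had Xist at 0.0263 and 0.0454 CPM, against 357 to 1389 CPM in the other 5 d libraries. The Y-linked gene Ddx3y was at 83.1 and 64.7 CPM in them, against 13.4 to 53.6 CPM in the others. The sex of the cells and batch M therefore cannot be told apart for these Penk values. Summed markers of striatal projection neurons, in which Penk is abundant, were highest in the same 3 libraries in which Penk was highest, at 231.8 CPM in untreated replicate 3, 194.7 CPM in miR-124-5p replicate 1 and 192.8 CPM in miR-92a-1-5p replicate 1, against 133 to 181 CPM in the other 13. The part of batch M and of these markers in the level of Penk was not tested.

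**Figure D4:**
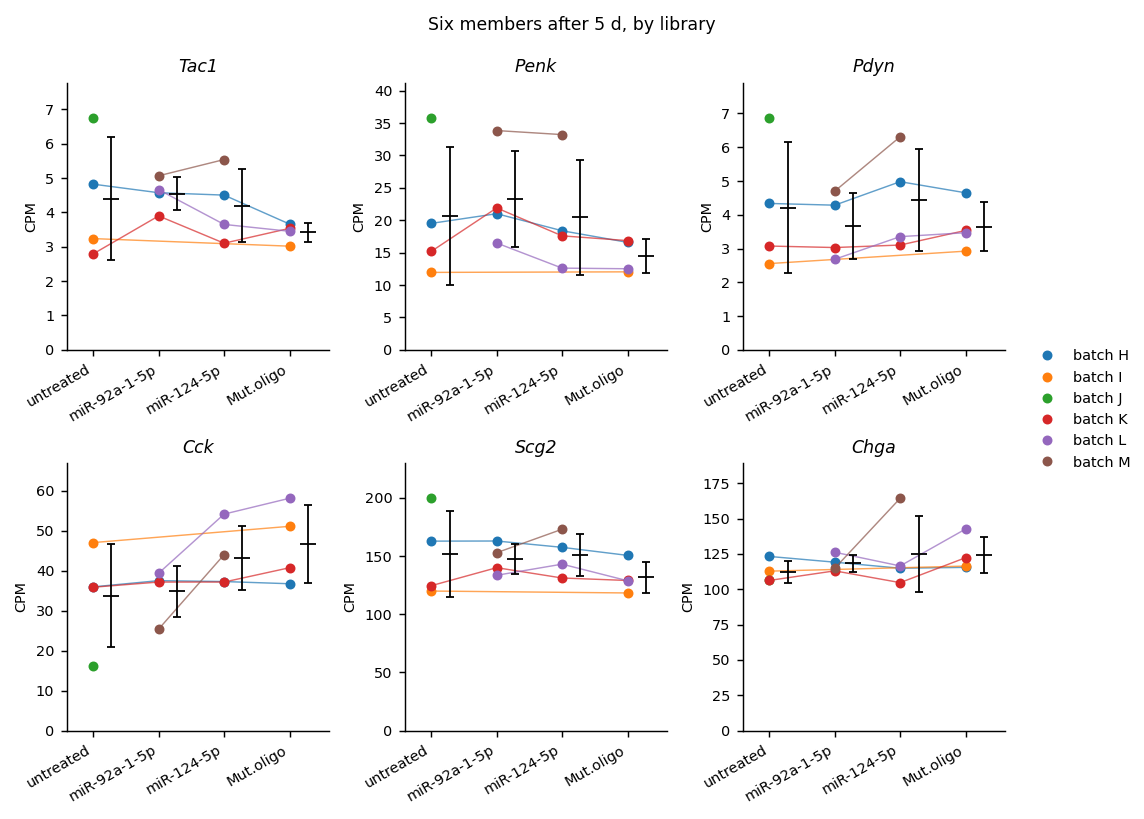
Levels of Tac1, Penk, Pdyn, Cck, Scg2 and Chga after 5 d in CPM (y axis, linear from 0) by group (x axis), with points, colours and bars as at 6 h. Untreated replicate 3 (batch J) and the libraries of batch M lie highest for Tac1 and Penk.

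**Figure D5:**
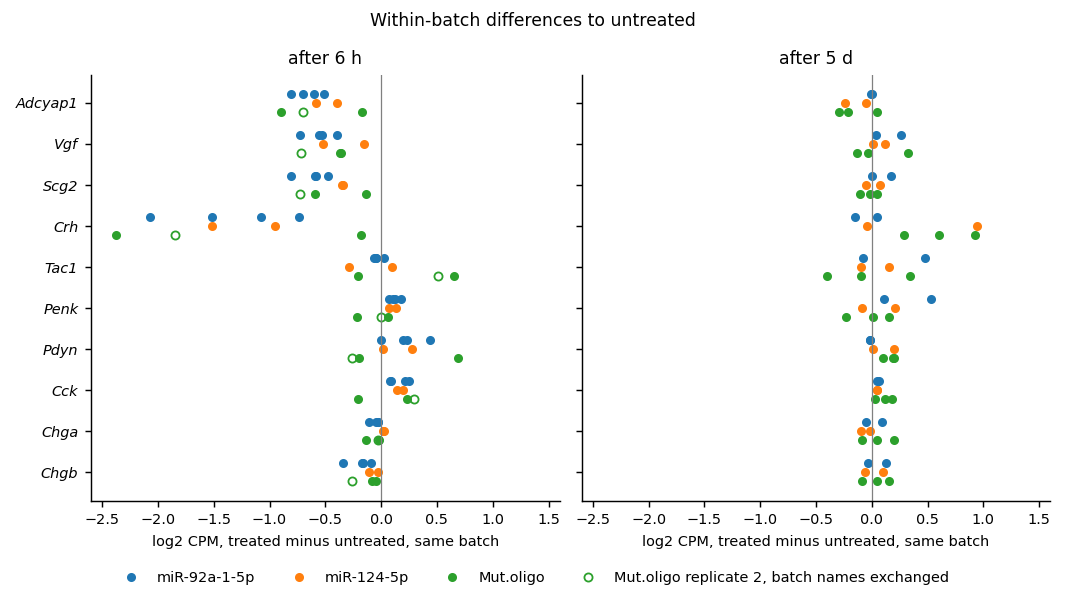
Difference in log2 CPM between a treated library and the untreated library of the same batch (x axis) for each of the 10 genes (y axis), after 6 h and after 5 d. Filled points follow the batch names as labelled and open circles show Mut.oligo replicate 2 against the untreated library of batch A. At 6 h Adcyap1, Vgf, Scg2 and Crh lie left of 0 for every pair. At 5 d the pairs of Adcyap1, Vgf and Scg2 lie between -0.29 and 0.32. Crh after Mut.oligo then lies right of 0 in 3 of 3 pairs (0.29 to 0.92), as does Penk after miR-92a-1-5p in 2 of 2 (0.11 and 0.53).

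Whether an effect differed between the time points was tested as an interaction over all 32 libraries and 20425 genes. Without a batch term, 0 of 10 genes and 0% of all genes were called for each oligoribonucleotide, and at an unadjusted p under 0.05 there were 2 members for miR-92a-1-5p, 1 for miR-124-5p and 4 for Mut.oligo, where 3.92%, 2.64% and 5.55% of all genes passed that level. With the batch term as labelled, 0 of 10 were called, against 0.137%, 0.0049% and 0.00979% of genes for miR-92a-1-5p, for miR-124-5p and for Mut.oligo, and 6, 0 and 4 members had an unadjusted p below 0.05, against 10.8%, 3.66% and 4.46% of all genes. The smallest p-values for miR-92a-1-5p then belonged to differences of 0.69 for Scg2 (SE 0.16, adjusted p = 0.0854) and 0.64 for Vgf (SE 0.16, adjusted p = 0.0953), meaning a less negative effect at 5 d. With the 2 names exchanged, Adcyap1 (0.61, adjusted p = 0.00587), Vgf (0.64, adjusted p = 0.00565) and Scg2 (0.69, adjusted p = 3.46e-05) were called for miR-92a-1-5p, against 0.627% of genes. For Mut.oligo, these 3 and Crh were called with that exchange, against 0.132% of genes, and for miR-124-5p 0 were called, against 0.049%.

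In untreated neurons, 3 of the 10 genes were lower and 1 was higher at 5 d than at 6 h, where 33.5% of 20425 genes were called, 14.3% lower and 19.1% higher. Vgf fell from 87.6 ± 20.6 to 36.4 ± 6.79 CPM (SD, n = 4), a log2 fold change of -1.28 (SE 0.20, adjusted p = 2.07e-06), with no overlap. Crh fell from 1.29 ± 0.460 to 0.324 ± 0.245 CPM (-2.01, SE 0.49, adjusted p = 0.000978), with 0.420, 0.101, 0.625 and 0.149 CPM at 5 d. Adcyap1 fell from 17.1 ± 2.698 to 10.04 ± 1.26 CPM (-0.79, SE 0.25, adjusted p = 0.00917), although without untreated 6 h replicate 1 the adjusted p was 0.052. Tac1 rose from 2.52 ± 0.624 to 4.404 ± 1.80 CPM (0.77, SE 0.25, adjusted p = 0.00916), and without untreated 5 d replicate 3 its log2 fold change was 0.53 (adjusted p = 0.074).

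Scg2 did not follow Vgf and Adcyap1 between the time points, at 150.03 ± 26.2 and 152 ± 37.3 CPM (log2 fold change -0.00, SE 0.15). Chga and Chgb differed by 0.06 (SE 0.09) and 0.10 (SE 0.07), and Penk, Pdyn and Cck by 0.31 (SE 0.25), 0.42 (SE 0.32) and 0.06 (SE 0.23). The batches of the time points do not overlap, so time in culture and batch cannot be told apart. The sum of 6 astrocyte markers was 398 to 672 CPM in untreated libraries at 6 h and 1620.01 to 3020.4 CPM at 5 d, and that of 7 excitatory neuron markers 1409 to 1555 and 690.5 to 1048 CPM, with none of them at 0. Their part in these differences was not tested.

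Genes that process and receive the peptides were read from lists. Of 14 genes of peptide processing and dense-core vesicles, edgeR and DESeq2 called 0 at 6 h without a batch term, where 0 to 2 had an unadjusted p below 0.05. After adding the batch, 1 was called for miR-92a-1-5p, against 0.208% of all genes. This was Pcsk1, a convertase that cleaves many neuropeptide precursors, at -0.61 (SE 0.13, adjusted p = 0.0353). The median log2 fold change of the list was -0.07, against 0.01 over all genes. Pcsk1 was at 8.59, 8.27, 5.28 and 6.39 CPM in untreated batches A to D and at 4.51, 5.91, 4.84 and 3.44 CPM after miR-92a-1-5p, below its partner in each. With the names as labelled, it was also below the untreated partner after Mut.oligo (6.05 CPM in batch A, 3.75 CPM in batch D). The same held after miR-124-5p (4.35 CPM in batch C, 3.83 CPM in batch D). Of 13 tested peptide receptors and binding proteins, Crhbp, which binds and neutralises corticotropin-releasing hormone, was called at -0.76 (SE 0.16, adjusted p = 0.0356) in that fit. Of 15 other neuropeptide precursors and 9 regulators of cAMP and CREB, edgeR called 0 for any oligoribonucleotide at 6 h or 5 d with or without the batch term as labelled. With the batch term, 6 other precursors and 5 regulators had an unadjusted p below 0.05 for miR-92a-1-5p at 6 h, where 13.4% of all genes did, and DESeq2 called 1 other precursor for Mut.oligo at 6 h. Among 18 immediate early genes, Npas4 (-0.84, SE 0.12, adjusted p = 0.00494) and Fos (-0.73, SE 0.12, adjusted p = 0.00767), both induced within minutes of depolarisation, were called lower for miR-92a-1-5p with the batch term, and Nr4a1 (-0.72, SE 0.07, adjusted p = 0.00123) and Npas4 (-1.04, SE 0.15, adjusted p = 0.0267) for Mut.oligo.

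In untreated neurons from 6 h to 5 d, 33.5% of all genes were called, 19.1% higher and 14.3% lower, and 5 of 14 processing genes rose and 0 fell, with the carboxypeptidase Cpe at 1.17 (SE 0.10, adjusted p = 4.38e-11), the convertase Pcsk2 at 1.01 (SE 0.11, adjusted p = 2.66e-09) and the vesicle protein Ptprn at 1.06 (SE 0.12, adjusted p = 9.49e-09). Of 13 receptors, 8 rose and 0 fell, among them the PACAP receptor Adcyap1r1 at 0.93 (SE 0.11, adjusted p = 2.42e-08) and the cholecystokinin receptor Cckbr at 1.48 (SE 0.20, adjusted p = 2.09e-07). Of 15 other precursors, 4 rose and 4 fell, with Vip at 3.91 (SE 0.48, adjusted p = 5.2e-08) and Cort at -2.47 (SE 0.32, adjusted p = 1.55e-07). Immediate early genes rose in 10 of 18 cases and fell in 3. The median log2 fold changes were 0.23 for processing genes, 0.81 for receptors and 0.65 for immediate early genes, against 0.04 over all genes.

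The genes whose log2 CPM ran most closely with a member over the 16 libraries of 6 h, among 13480 genes with a mean of at least 1 CPM, are given as a description, since all points share batches and treatments. For Scg2 these were Plppr4 (r = 0.98) and Grm2 (r = 0.96), for Vgf Hdac9 (r = 0.98), and for Adcyap1 Gnb4 (r = 0.96) and Rgs4 (r = 0.95). For Crh they were Plppr4 (r = 0.92) and Scg2 itself (r = 0.90). Between members, Scg2 also ran with Chgb (r = 0.89) and Vgf (r = 0.83), and Adcyap1 with Vgf (r = 0.76). Cck ran with Notch1 (r = 0.96) and against Adcyap1 (r = -0.67), and Penk ran against Vgf (r = -0.65). At 5 d, Penk ran with Rgs8 (r = 0.98) and Foxp2 (r = 0.95), Cck with Hpca (r = 0.97), and Scg2 with Rnf135 and Rab7b (r = 0.96 each).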

How the data were processed

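Reads of stranded mRNA libraries were mapped by the authors to GRCm38 with STAR and assigned to exons on the annotated strand with featureCounts, and the deposited values are raw counts per gene for 32 libraries, without normalization. Groups and experiment batches came from the labels. Models in edgeR 4.0.16 (R 4.3.3) took in all 4 groups of a time point (TMM, quasi-likelihood test, at least 5 counts in at least 3 libraries, no covariate, as the study's methods name none), with Benjamini-Hochberg adjustment over all genes tested. The study may still have used the batch. For miR-92a-1-5p at 5 d, DESeq2 with the batch called 115 genes lower and 3 higher, the counts the paper reports. Without the batch it called 29 and 0. Counts of the other comparisons to untreated were not the same as the paper's in either fit. CPM are counts scaled to the library total of counted reads. Exon lengths, UTRs and positions came from GENCODE M21, a later release than the annotation the authors counted on, so lengths per gene may differ from those behind the counts. p-values measure the spread between libraries that the labels call biological replicates.

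The alternatives were the batch as covariate, a replicate block, RLE size factors, no filter, DESeq2 1.42.0 with and without the batch, limma 3.58.1 (voom with batch as random block), only the 2 groups compared, no minimum fold and leaving out each replicate. Fits with exchanged batch names, without these 2 libraries, with the batch and only 2 groups, and leave-one-out fits with the batch were chosen after seeing the data. The members and lists were chosen with earlier results of these data known, and the paper had already listed Adcyap1 and Vgf as lower at 6 h. Shares of called members set against all genes are therefore descriptions and no test of enrichment. All 10 members were named, with every library given for those past an adjusted p of 0.05 in an oligoribonucleotide comparison and for the 3 smallest p-values of each comparison to untreated. Of the lists, at most 5 called genes per comparison were eligible to be named, and at most the 2 genes most like a member were named, for chosen members. The scripts were tested on simulated data. Counts of replicates differed beyond sampling noise (chi-square over its degrees of freedom 7.1 to 110), so each was kept as a sample of its own.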

Additional observations from a re-analysis of the deposited data

Results flagged for a closer look

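A library stood far from the other 3 of its group in 4 of the 80 combinations of a member and a group, by Dixon's criterion for 4 samples (the gap to the nearest library over the range), and chance flags about 1 in 20 groups. Crh was at 1.98 CPM in untreated 6 h replicate 2, against 1.03 to 1.09 CPM in the others. Without that library, Crh after miR-92a-1-5p was at a log2 fold change of -1.37 (SE 0.48, adjusted p = 0.388) with the batch term in edgeR. Crh was at 0.969 CPM in Mut.oligo 6 h replicate 3, against 0.204 to 0.335 CPM, and this is one of the 2 Mut.oligo libraries whose likeness to others goes against their batch names. Cck was at 25.4 CPM in miR-92a-1-5p 5 d replicate 1, against 37.1 to 39.3 CPM, and this library belongs to batch M. Chga was at 114 CPM in miR-124-5p 6 h replicate 4, against 105 to 106 CPM.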

How the results depend on the processing

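Of the alternatives for the number of members called, 328 stayed within 1.5 times of the reported count and 19 moved. For miR-92a-1-5p against untreated at 6 h, where the fit without covariates called 0, the count was 3 with the batch as covariate (0 to 3 leaving out 1 library), 1 with DESeq2 and the batch, 4 with the batch names of Mut.oligo replicates 2 and 3 exchanged, 4 with both left out, 4 with the batch and only the 2 groups (3 or 4 without 1 batch) and 3 with DESeq2 and the same 2 groups. The 3 called members dropped to 1 without untreated replicate 4 or miR-92a-1-5p replicate 3, stayed at 3 without miR-92a-1-5p replicate 1, and dropped to 0 without any other library of the 2 groups. For Mut.oligo at 6 h it was 4 with exchanged names, 3 with both libraries left out, and 0 to 4 with the batch and 1 library left out, with 4 without Mut.oligo replicate 3. For miR-124-5p against Mut.oligo at 6 h it was 0 to 2, with 2 without the same library. That library was the highest of its group for Adcyap1, Vgf, Scg2 and Crh, and shares of all genes are not given for fits without it. With exchanged names, the difference of effects between time points was called for 3 members for miR-92a-1-5p and 4 for Mut.oligo. Why these counts moved was not tested.

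Single fold changes kept their direction and call in 532 cases, passed the threshold newly in 45, lost it in 2 and turned in 16, all turns being within 0.10 of 0. Chga after miR-92a-1-5p at 5 d turned to -0.04 with the batch in edgeR and in DESeq2 and to between -0.10 and -0.00 leaving out 1 library (-0.00, -0.04, -0.10, -0.09 and -0.06), and Chgb to between -0.05 and -0.03 (-0.04 without miR-92a-1-5p replicate 4). With the batch and 1 library left out, Chga after miR-124-5p at 5 d turned to -0.05 and -0.07, and at 6 h Chgb turned to 0.05 and Scg2 to 0.01 after miR-124-5p. With the replicate number as block, 0 members were called in the 12 oligoribonucleotide comparisons and 4 between time points, as without it, so the block changed no count. Samples with the same number deviated together in all pairs (r above 0.1) in only 1 of 12 comparisons, with r from -0.60 to 0.83. That comparison was miR-92a-1-5p against miR-124-5p at 5 d (r from 0.36 to 0.60), where every pair of the same number also shared a labelled batch. Some pairs of the other comparisons shared a batch too, so a number stood for a batch in part of the pairs only.

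Crh rested on at most 69 reads in each library, so its fold changes carry wide errors at this depth. With 4 libraries a group, an exact permutation test of 1 gene cannot give a two-sided p below 0.0286. All comparisons to untreated at a time point share its 4 libraries. Batches of 1 library, 2 at 6 h and 1 at 5 d, add nothing to a fit with batch.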
